A study of Arabidopsis thaliana with 31 samples.

Results

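The 20 libraries described here, of the 31 in the series, form a factorial design in which loss of GCN5 and loss of NRP1 and NRP2 were present separately and together. All libraries of the second experiment of the series were taken, 5 from each of 4 genotypes of Arabidopsis thaliana. Col-0 is the wild type, gcn5-7 carries a mutant allele of GCN5, nrp1-1 nrp2-2 (the NRP double mutant) carries mutant alleles of both NRP genes, and the triple mutant gcn5-7 nrp1-1 nrp2-2 carries all 3 alleles. All plants were grown on soil under long days after cold treatment of the seeds, and whole seedlings were taken 12 days after germination for total RNA. The labels name 1 line of each genotype and do not say whether the replicates came from separate cultures, so the p-values speak only for the spread among these libraries.

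GCN5 is the catalytic histone acetyltransferase of the SAGA coactivator complex, which acetylates histone H3 at promoters and is needed for normal leaf, root and flower development. NRP1 and NRP2 are histone chaperones related to NAP1 that bind H2A and H2B and act on the placement of the histone variant H2A.Z. Both kinds of protein act on nucleosomes, and the triple mutant asks whether the effect of one loss depends on the presence of the other.

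The quantity measured here was the departure from additivity. It was computed for each gene as the level in the triple mutant minus that in gcn5-7, minus that in nrp1-1 nrp2-2, plus that in Col-0, on the scale log2(deposited value + 1). A value of 0 means that the gcn5-7 change was the same size with and without the NRP genes and, equally, that the NRP change was the same size with and without GCN5. The departure was tested in limma over the 19507 genes whose deposited value averaged at least 1, and calls were made where the p adjusted by Benjamini-Hochberg was below 0.05. The deposited values are per length, so levels of different genes can be set side by side. Whole seedlings hold many cell types, and fewer cells of a type cannot be told apart from less RNA per cell.

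Between 10.3 and 16.8 M reads per library were recovered from the deposited values. Replicates 1 and 2 of Col-0, replicates 1 and 2 of nrp1-1 nrp2-2 and replicate 2 of the triple mutant stood apart from the rest: their values fell with exon length, with Spearman correlations across genes of -0.34 to -0.50, and they lay at -64 to -134 on principal component 1 (49.9% of the variance). No gcn5-7 library was among them, and the part of this difference in the results was not tested beyond the fits without these 5 libraries. Sums of the deposited values ran from 704073 to 821849 in gcn5-7 and from 812807 to 1794259 in the other genotypes.

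The targeted genes were examined first. NRP2 (AT1G18800) stood at 9.16, 12.7, 14.4, 13.4 and 9.48 in the Col-0 libraries and at 28.1, 27.7, 23.9, 19.3 and 20.3 in gcn5-7. The nrp1-1 nrp2-2 libraries held 0.353, 0.403, 0, 0.285 and 0, and all those of the triple mutant were listed at 0. The 10 libraries that carry nrp2-2 thus lay far below the other 10, and gcn5-7 lay above Col-0 without overlap. NRP1 (AT1G74560) averaged 27.8 ± 4.68 (SD, n = 5) in Col-0, 48.5 ± 6.92 (n = 5) in gcn5-7, 6.91 ± 2.01 (n = 5) in nrp1-1 nrp2-2 and 11.3 ± 1.37 (n = 5) in the triple mutant. NRP1 was about additive, with a departure of -0.11 ± 0.26 (SE, limma adjusted p = 0.958), and both NRP transcripts were higher in gcn5-7 than in Col-0. The departure of NRP2 was -1.22 ± 0.25 (SE) and did not pass, with a limma adjusted p of 0.0809. Where nrp2-2 is present the NRP2 level was at or near 0, so a gcn5-7 rise could hardly show there. Its departure is therefore no measure of additivity. GCN5 (AT3G54610) averaged 5.61 ± 1.45 in Col-0, 4.44 ± 1.34 in gcn5-7, 6.28 ± 1.61 in the NRP double mutant and 3.14 ± 0.645 in the triple mutant (SD, n = 5 each). The level summed over the whole GCN5 gene overlapped between Col-0 and gcn5-7, so it does not check the gcn5-7 label by itself.

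A departure from additivity was called for 8 of the 19507 genes, 0.041% of those tested, with 4 positive and 4 negative departures (0.0205% each). Every called departure ran against the gcn5-7 change. The 4 genes that were far higher in gcn5-7 than in Col-0 were not raised to that extent in the triple mutant. The 4 that were far lower in gcn5-7 were not lowered to that extent. The departure contains the gcn5-7 change in Col-0 with its sign turned, so genes picked for a large departure tend to run this way. AT1G64795, AT1G75945 and AT2G11405, among the 4 higher in gcn5-7, averaged below 1 elsewhere and passed the filter through gcn5-7 alone. At an unadjusted p below 0.05 there were 1406 genes (7.21%), of which 996 had positive and 410 negative departures. The median departure over all genes was 0.02 and the median absolute departure 0.29. Without the 5 libraries that stood apart, 3 genes were called, 1 positive and 2 negative, and 2 of the 8 (AT1G64795 and AT2G40960) were among them. Leaving out replicate 3 of the triple mutant raised the count to 18, 12 positive and 6 negative. With libraries scaled to equal sums, 6 were called, 1 positive and 5 negative, and the median departure over all genes moved from 0.02 to -0.09. With replicate number added to the fit as a block, 217 were called, 165 positive and 52 negative.

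The 4 genes with negative departures were AT1G64795, AT1G75945, AT2G11405 and AT2G41780, all of which the annotation lists as uncharacterized proteins. The 4 with positive departures were AT2G40960 (a single-stranded nucleic acid binding protein with an R3H domain), PGL34 (plastoglobulin 34kD, a protein of chloroplast lipid droplets), FUC1 (an alpha-L-fucosidase, which removes fucose from glycans) and AT1G68260 (a thioesterase superfamily protein). PGL34 and FUC1 are the called genes with a symbol, and the other 6 are named because the count is small.

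The promoter sequences of 2 genes from each direction are shown because these genes had the most extreme departures among the called genes and their levels differed mainly in gcn5-7. Each runs 5′ to 3′ on the gene's strand from 250 bases before to 50 bases after the RefSeq gene start (300 bases, TAIR10.1), and capitals mark any match, on either strand, to 7 motifs. No matches of different motifs overlapped in the promoters of the 8 called genes. The W box, bound by WRKY factors, was searched as TTGACC. The G box, bound by bHLH and bZIP factors, was searched as CACGTG. For the telo box, found in genes of the translation machinery, the letters were AAACCCTA. The site II element, bound by TCP factors, was taken as TGGGCC. The GCC box, bound by ethylene response factors, was taken as AGCCGCC. The evening element of clock-controlled genes was searched as AAAATATCT. The TATA box of core promoters was searched as TATAAA.
AT1G64795, chr1:24082329-24082628, plus strand: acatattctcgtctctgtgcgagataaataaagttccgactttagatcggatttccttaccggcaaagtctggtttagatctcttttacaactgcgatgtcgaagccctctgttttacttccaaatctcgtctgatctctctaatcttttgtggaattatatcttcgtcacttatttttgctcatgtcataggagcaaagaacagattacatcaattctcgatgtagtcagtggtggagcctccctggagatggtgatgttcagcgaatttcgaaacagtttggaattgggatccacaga
AT1G75945, chr1:28515867-28516166, minus strand: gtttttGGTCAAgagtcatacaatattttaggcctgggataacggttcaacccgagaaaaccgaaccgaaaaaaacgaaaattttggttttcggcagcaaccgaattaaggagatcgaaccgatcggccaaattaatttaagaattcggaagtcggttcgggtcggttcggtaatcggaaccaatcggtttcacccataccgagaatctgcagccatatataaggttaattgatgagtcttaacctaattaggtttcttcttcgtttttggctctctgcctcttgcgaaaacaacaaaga
AT2G40960, chr2:17094915-17095214, plus strand: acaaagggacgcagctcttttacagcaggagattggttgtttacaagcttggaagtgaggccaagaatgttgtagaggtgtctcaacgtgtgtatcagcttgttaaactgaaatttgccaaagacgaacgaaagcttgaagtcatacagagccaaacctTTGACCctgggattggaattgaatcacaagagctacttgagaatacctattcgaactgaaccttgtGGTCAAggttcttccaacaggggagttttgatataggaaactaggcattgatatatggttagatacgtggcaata
PGL34, chr3:21478138-21478437, minus strand: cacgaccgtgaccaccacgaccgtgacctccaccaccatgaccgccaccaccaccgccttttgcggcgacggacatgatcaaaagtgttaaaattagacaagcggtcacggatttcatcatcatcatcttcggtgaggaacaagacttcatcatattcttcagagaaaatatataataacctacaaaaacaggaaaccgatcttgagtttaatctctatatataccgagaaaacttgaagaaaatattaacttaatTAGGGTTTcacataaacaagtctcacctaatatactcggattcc

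Across the 8 promoters, a W box was found in 2 (AT1G75945 and AT2G40960), a telo box in 2 (PGL34 and AT2G11405) and a TATA box in 1 (AT2G11405). Of the 19386 promoters of tested genes read in the same way, 14.1% held a W box, 5.75% a telo box and 49.2% a TATA box. No G box, site II element, GCC box or evening element was found in these 8 windows, against 8.41%, 18.7%, 0.913% and 2.84% of all promoters.

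AT1G64795 had the most negative departure. It lies at 24082579 to 24082848 on chromosome 1 and has an exon length of 201 bases. Its deposited values were 131, 264, 189, 98.6 and 81.9 in the gcn5-7 libraries. They were 0, 1.18, 0, 0.447 and 0 in Col-0, 0, 0, 0, 0 and 1.54 in nrp1-1 nrp2-2, and 0, 0, 0.544, 0 and 0 in the triple mutant. All gcn5-7 libraries thus lay far above the other 15, and the triple mutant overlapped both Col-0 and nrp1-1 nrp2-2. The gcn5-7 change was 6.80 without and -0.14 with the NRP mutations, and the departure was -6.95 ± 0.46 (SE, limma adjusted p = 4.58e-08). The gene lies within the span of ILA (AT1G64790), which is annotated on the other strand. The handling of strand is not given in the sources used here, so reads of the pair cannot be told apart where their exons overlap. ILA itself averaged 7.89 ± 4.04 in Col-0, 18.4 ± 2.96 in gcn5-7, 9.47 ± 5.21 in the NRP double mutant and 11.1 ± 5.87 in the triple mutant (SD, n = 5 each), a much smaller range than that of AT1G64795.

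AT1G75945 (chromosome 1, 28515245 to 28515916) lies 498 kb from NRP1, nearer to a targeted gene than any other called gene. It stood at 16.5, 12.2, 19.9, 38.2 and 30.3 in gcn5-7 and at 0, 0.77, 0, 0.195 and 0 in Col-0. It stood at 1.00, 0, 1.08, 0.161 and 2.01 in nrp1-1 nrp2-2 and at 0.769, 0, 0.712, 0.164 and 7.45 in the triple mutant. Replicate 5 of the triple mutant was higher than the other 4, yet still below every gcn5-7 library. The gcn5-7 change was 4.28 without and 0.21 with the NRP mutations, a departure of -4.08 ± 0.65 (SE, limma adjusted p = 0.0130).

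AT2G11405 (chromosome 2, 4543175 to 4543522) was listed at 0 in all 5 Col-0 libraries. It stood at 7.29, 5.75, 8.05, 15.0 and 19.7 in gcn5-7, at 0, 0, 0, 0 and 0.296 in nrp1-1 nrp2-2, and at 0.255, 2.43, 1.26, 1.31 and 0.459 in the triple mutant. The triple mutant lay above Col-0 and below gcn5-7 in every library. Its gcn5-7 change was 3.47 without and 0.93 with the NRP mutations, and the departure was -2.54 ± 0.40 (SE, limma adjusted p = 0.0130).

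AT2G41780 (chromosome 2, 17427922 to 17428812) likewise took a middle position. It stood at 1.63, 0.531, 0.948, 1.61 and 1.15 in Col-0, and at 12.9, 9.999, 10.3, 8.75 and 11.9 in gcn5-7. It stood at 3.11, 2.36, 1.96, 1.504 and 1.16 in nrp1-1 nrp2-2, and at 3.98, 5.05, 2.21, 3.40 and 4.12 in the triple mutant. The triple mutant lay above all Col-0 libraries, below all gcn5-7 libraries, and overlapped nrp1-1 nrp2-2. The departure was -1.79 ± 0.30 (SE, limma adjusted p = 0.0222), and it passed in 11 of the 20 fits that left out 1 library.

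AT2G40960 (chromosome 2, 17095165 to 17097454) was nearly lost in gcn5-7. It stood at 0.189, 0.31, 0.067, 0.234 and 0.256 there, against 3.91, 7.41, 6.28, 7.07 and 7.31 in Col-0. In nrp1-1 nrp2-2 it stood at 5.25, 2.83, 6.63, 10.2 and 5.88, and in the triple mutant at 4.501, 3.31, 3.80, 6.002 and 4.55. The triple mutant overlapped Col-0 and nrp1-1 nrp2-2, although it carries the same gcn5-7 allele. The gcn5-7 change was -2.59 without and -0.33 with the NRP mutations, a departure of 2.25 ± 0.33 (SE, limma adjusted p = 0.00797).

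PGL34 (AT3G58010) lies on chromosome 3 at 21475805 to 21478187, 1262 kb from GCN5. It stood at 32.0, 27.4, 22.5, 24.6 and 32.3 in Col-0 and at 2.55, 3.87, 3.501, 5.61 and 4.97 in gcn5-7. In nrp1-1 nrp2-2 it stood at 31.5, 19.2, 26.4, 24.5 and 32.0, and in the triple mutant at 19.5, 17.0, 13.1, 19.4 and 21.5. The triple mutant lay below every Col-0 library and well above every gcn5-7 library. The departure was 1.98 ± 0.27 (SE, limma adjusted p = 0.00447), with a gcn5-7 change of -2.52 without and -0.53 with the NRP mutations.

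FUC1 (AT2G28100; chromosome 2, 11974663 to 11976600) stood at 7.58, 12.0, 10.4, 12.0 and 13.7 in Col-0 and at 2.35, 1.58, 1.76, 2.86 and 1.63 in gcn5-7. It stood at 8.34, 5.74, 9.55, 11.1 and 9.02 in nrp1-1 nrp2-2 and at 5.75, 7.38, 5.25, 8.33 and 7.89 in the triple mutant. Only gcn5-7 stood apart from the other genotypes. The departure was 1.70 ± 0.28 (SE, limma adjusted p = 0.0159), and 16 of the 20 fits without 1 library kept the call. The loci MIR5021 (AT2G08235) and AT2G28105 overlap FUC1, so its reads could be shared with them.

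AT1G68260 (chromosome 1, 25585774 to 25587717) stood at 30.5, 35.3, 21.8, 29.0 and 26.0 in Col-0 and at 8.09, 10.1, 8.71, 11.0 and 8.35 in gcn5-7. It stood at 29.9, 21.5, 21.1, 27.8 and 31.7 in nrp1-1 nrp2-2 and at 23.9, 30.8, 20.3, 26.2 and 26.2 in the triple mutant. The triple mutant was thus within the range of Col-0 except for replicate 3, and the gcn5-7 change of -1.52 was -0.04 with the NRP mutations. The departure of 1.48 ± 0.23 (SE, limma adjusted p = 0.0130) was the smallest in size among the 8.

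**Figure D1:**
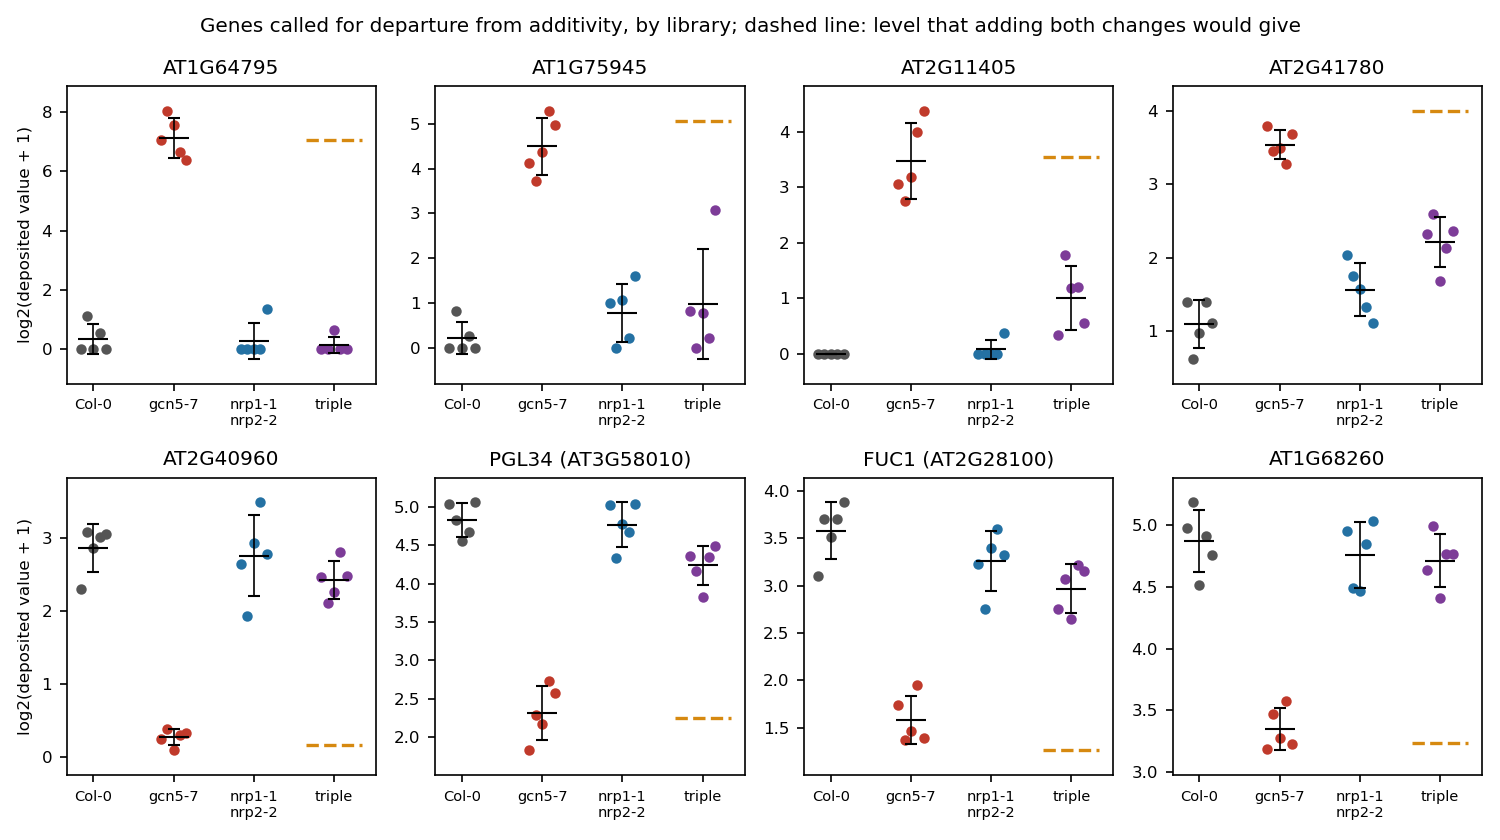
Levels of the 8 called genes as log2(deposited value + 1) in each library (dots, 5 per genotype), with the mean and SD (bars); the dashed line is the triple-mutant level that adding both changes to Col-0 would give. In all 8 panels the gcn5-7 libraries lie apart from the other 15, and the triple mutant lies away from the dashed line on the side of Col-0.

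In all 8 genes nrp1-1 nrp2-2 overlapped Col-0. None of the 8 was called for the NRP change in Col-0, with limma adjusted p-values from 0.840 for AT2G41780 to 0.992 for AT1G64795. The other 6 genes passed the test of the departure in all 20 fits without 1 library, next to AT2G41780 and FUC1. Without the 5 libraries that stood apart, the departures were -7.25 for AT1G64795, -4.14 for AT1G75945, -2.78 for AT2G11405, -1.6 for AT2G41780, 2.14 for AT2G40960, 1.87 for PGL34, 1.62 for FUC1 and 1.24 for AT1G68260. The signs were thus kept, and the 6 that no longer passed had limma adjusted p-values from 0.0602 to 0.131. No called gene had both parents within 0.5 (log2) of Col-0, and none rose in one parent and fell in the triple mutant by the test. The next 2 genes by unadjusted p did not pass. TGG2, a myrosinase that cleaves glucosinolates on wounding, averaged 766 ± 166 in Col-0, 193 ± 41.4 in gcn5-7, 665 ± 125 in the NRP double mutant and 460 ± 88.8 in the triple mutant (SD, n = 5 each). Its departure was 1.45 ± 0.28 (SE, limma adjusted p = 0.0696). The noncoding RNA AT4G05435, which overlaps AT4G05425 on the other strand, averaged 1.13 ± 0.465 in Col-0, 0.424 ± 0.457 in gcn5-7, 0.221 ± 0.305 in the NRP double mutant and 2.29 ± 1.098 in the triple mutant. It is the gene among the 10 smallest p-values in which both parents averaged lower than Col-0 and the triple mutant higher, with a departure of 2.00 ± 0.38 (SE, limma adjusted p = 0.0696).

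Few genes were called for the departure itself in the fit without replicate number as a block, against 217 with it. The SEs and intervals that follow are those of the fit without the block, and show the precision of that fit alone. The median SE of the departure was 0.38, and the smallest called departure was 1.48 in size. The 95% interval of the departure lay wholly within -1 to 1 for 7750 genes (39.7%), and it included 0 for 18101 genes. For the remaining genes a departure of 1 or more on the log2 scale was not excluded by the interval.

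The gcn5-7 change could be read in 2 sets of libraries that share none: gcn5-7 against Col-0, and the triple mutant against nrp1-1 nrp2-2. In limma, 5118 genes (26.2%) were called in the first and 139 (0.713%) in the second, and 126 in both, which is 2.46% of the first and 90.6% of the second. All 126 changed in the same direction, 17 higher and 109 lower. The SD of the change across genes was 0.75 without and 0.43 with the NRP mutations, and the median absolute change was 0.46 and 0.28. The change was larger in size without the NRP mutations for 14207 genes (72.8%), while the direction was largely shared, with a correlation across genes of r = 0.77 (rho = 0.77, 19507 genes, which are not independent replicates). These sizes, share and correlation are from all libraries. Of the 5 libraries that stood apart, replicates 1 and 2 of Col-0 enter the first comparison on 1 side only. In the second comparison, replicates 1 and 2 of nrp1-1 nrp2-2 stand against replicate 2 of the triple mutant. The part of these 5 libraries in the sizes, share and correlation was not tested. The counts moved with single libraries: the first was 3279 and 3306 without replicates 1 and 2 of Col-0 and 2957 and 3365 without replicates 1 and 3 of gcn5-7, and the second was 91 without replicate 1 of the triple mutant. Without the 5 libraries that stood apart they were 4389 and 66, and with library weights 8665 and 402. With replicate number as a block they were 9714 and 1237.

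Genes with gcn5-7 changes called in both backgrounds differed in their departures, and the 6 named here were chosen after their values were seen. EXLB1, an expansin-like cell wall protein, averaged 29.0 ± 15.3 in Col-0, 0.0182 ± 0.0407 in gcn5-7, 27.4 ± 16.4 in the NRP double mutant and 1.395 ± 0.656 in the triple mutant (SD, n = 5 each), with changes of -4.73 and -3.42 and a departure of 1.31 ± 0.50 (SE). CPL3, a small MYB protein related to CAPRICE that acts on epidermal hairs, changed by -2.16 and -2.22, and its departure was -0.06 ± 0.54 (SE). The thaumatin-like TLP-3 changed by -2.07 and -2.12, a departure of -0.05 ± 0.56 (SE). Among genes that rose, the nitrilase NIT2 changed by 4.28 and 3.24, a departure of -1.04 ± 1.07 (SE), and the osmotin OSM34 by 3.74 and 2.72, a departure of -1.02 ± 0.74 (SE). AGP41, an arabinogalactan peptide, changed by -3.25 and -2.58, a departure of 0.67 ± 0.72 (SE). Of the 6, CPL3 and TLP-3 thus had departures close to 0. None of these 6 passed the test of the departure (EXLB1 at an unadjusted p below 0.05), whose limma adjusted p-values ran from 0.567 for EXLB1 to 0.994 for TLP-3.

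The NRP change showed the opposite order of sizes. In limma, 76 genes (0.39%) were called between nrp1-1 nrp2-2 and Col-0 and 627 (3.21%) between the triple mutant and gcn5-7, and 36 were called in both (47.4% and 5.74% of each), 26 higher and 10 lower. The median absolute NRP change was 0.19 without and 0.31 with gcn5-7, and the correlation across genes between these separate sets of libraries was r = 0.40 (rho = 0.41). The first count was 38 and 124 without replicates 1 and 2 of nrp1-1 nrp2-2, 50 without its replicate 5, and 36 and 43 without replicates 3 and 5 of Col-0. The second was 210, 354, 245 and 316 without replicates 1, 2, 3 and 5 of gcn5-7, 1116 without replicate 2 of nrp1-1 nrp2-2, and 262, 281, 1669, 332 and 182 without replicates 1 to 5 of the triple mutant. Without the 5 libraries that stood apart the counts were 91 and 1001, with library weights 439 and 5788, and after quantile normalization 82 and 1246. With replicate number as a block they were 334 and 4953. By construction the departure is the same number whichever of the changes is compared, so this is the same departure read the other way.

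Genes with an NRP change called in the same direction in both backgrounds included SKB1, an arginine methyltransferase, chosen like the next after its values were seen. It stood at 10.1, 13.8, 8.82, 11.7 and 11.4 in Col-0 and at 24.9, 13.9, 20.7, 25.7 and 24.4 in nrp1-1 nrp2-2. It stood at 15.9, 14.6, 14.5, 14.8 and 13.2 in gcn5-7 and at 28.6, 31.2, 23.7, 27.0 and 30.3 in the triple mutant. The mutants of NRP lay above their controls in both pairs, by 0.90 in each, and the departure was 0.00 ± 0.23 (SE). The DnaJ-type chaperone ATJ1 rose by 0.84 and 0.83, and the AP2-type factor DEAR2 by 1.33 and 1.21. TOM7-2, a part of the pore that imports proteins into mitochondria, rose by 2.32 and 1.99, and the prohibitin PHB4 by 1.58 and 1.01. CYP98A9, a cytochrome P450 gene that overlaps NRP1 on the other strand, fell by 1.94 and 1.95, and its reads could be shared with NRP1.

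**Figure D2:**
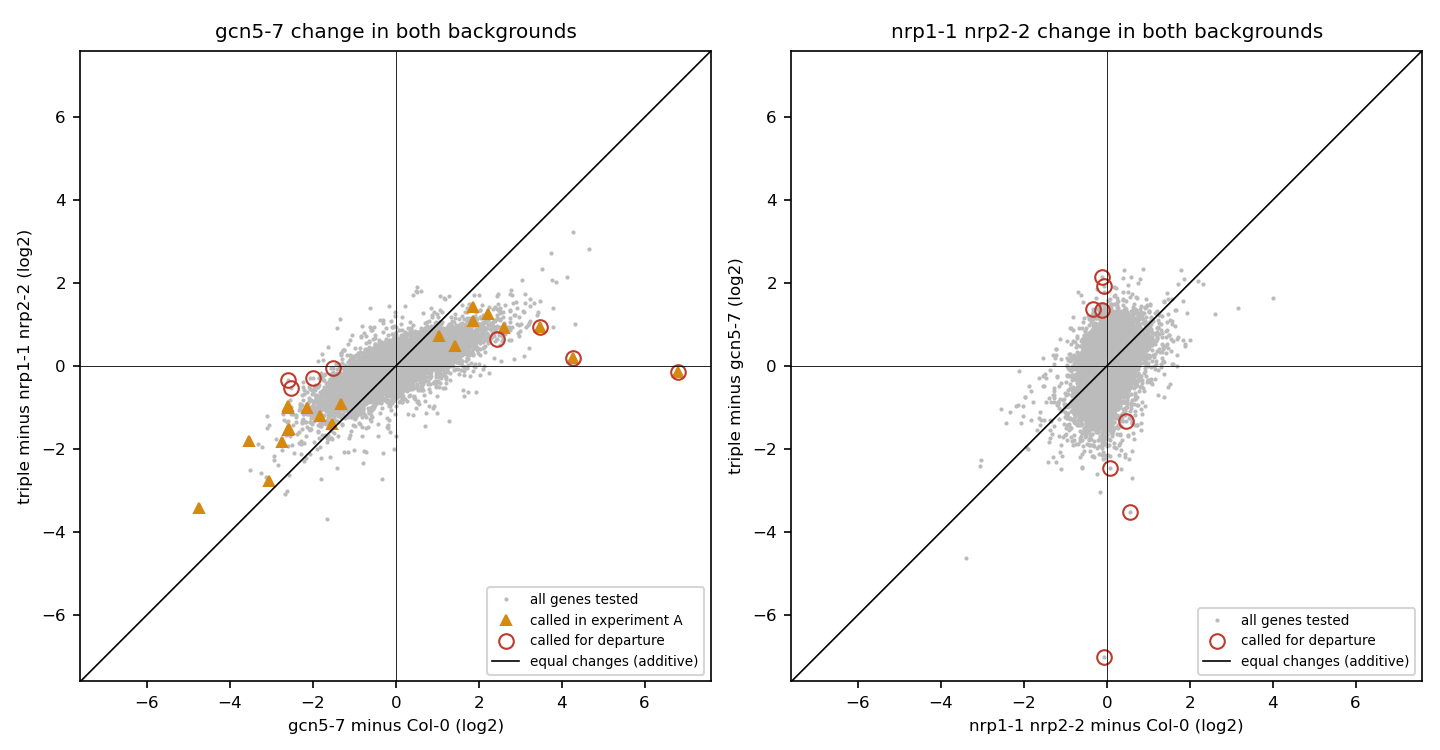
Each gene's log2 change from gcn5-7 (left) and from nrp1-1 nrp2-2 (right), with the other mutation absent (x axis) and present (y axis); grey dots are the 19507 genes tested, circles the 8 genes called for the departure, and triangles the 21 genes called in the first experiment. The diagonal marks additive behaviour, and on the left the triangles lie between the diagonal and the horizontal line at 0, except AT1G64795, which lies just below 0.

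A set of GCN5-responsive genes was called in the first experiment of the series, which compared gcn5-7 (3 libraries) with Col-0 (2 libraries) separately. There, limma called 26 of 18322 genes, 13 higher and 13 lower. The filter on the mean and the estimate of the spread in that fit also drew on that experiment's libraries of the genotypes arp6-1 and gcn5-7 arp6-1. Fitted here with no filter on low values, a setting chosen for this set after seeing the data, the departure ran against the direction of the first experiment in 26 of 26, with a median of -0.95 and a range from -6.95 to -0.14 when signed by that direction. The filter on the mean over these 20 libraries kept 21 of the 26 (9 higher and 12 lower), so being tested depended in part on the levels compared. It left out 4 higher genes and 1 lower gene, and 3 of the 9 higher ones (AT1G64795, AT1G75945 and AT2G11405) averaged below 1 outside gcn5-7 and passed through gcn5-7 alone. The 5 genes left out averaged 0.06 to 0.26 outside gcn5-7, close to the floor, so their signs carry little. The lower one, AT2G06305, averaged 0.305 in Col-0 and 0 in the other genotypes, so its sign was fixed by the floor. The values that follow describe these 21. Among them the gcn5-7 change, signed in the same way, had a median of 2.59 in Col-0 and of 1.08 in the NRP double mutant. Over all 17451 genes tested in both experiments the departure ran against that direction in 67.6%, and over the 2020 genes with a change of at least 1 in the first experiment in 91.1%. Without the 5 libraries that stood apart the departure of the 21 had a median of -0.98, and in replicates 1 and 2 alone it ran against that direction in 18 of them. With 0.1 in place of 1 added to the values it did so in 20. AT1G64795, AT1G75945 and AT2G11405 are among the 8 called for the departure.

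The 9 tested genes that were higher in gcn5-7 in the first experiment had mean levels, on the scale log2(value + 1), of 0.88, 1.17, 1.1, 0.56 and 0.53 in Col-0 and of 4.04, 3.43, 3.83, 3.26 and 3.87 in gcn5-7. In nrp1-1 nrp2-2 they were 0.81, 0.75, 1.2, 0.45 and 0.86, and in the triple mutant 1.53, 1.56, 2.12, 1.26 and 1.43. The triple mutant lay above Col-0 and nrp1-1 nrp2-2 and below gcn5-7 without overlap. AT1G64795, AT1G75945 and AT2G11405, which passed the filter through gcn5-7 alone, are among the 9 and weigh heavily on this gap. Their departures were -6.95, -4.08 and -2.54, and those of the rest of the 9 ran from -1.68 to -0.33. The means without them were not computed. The 12 tested lower genes averaged 3.78, 3.94, 3.5, 3.73 and 3.66 in Col-0, 0.79, 1.31, 0.89, 1.36 and 1.24 in gcn5-7, 3.79, 3.67, 3.38, 3.73 and 3.70 in nrp1-1 nrp2-2, and 1.91, 2.05, 1.55, 2.33 and 2.36 in the triple mutant. Again the triple mutant took a middle position in every library.

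Members of this set show the range. ADS4, a protein of the fatty acid desaturase family, averaged 2.099 ± 0.954 in Col-0, 17.3 ± 2.82 in gcn5-7, 4.29 ± 2.02 in the NRP double mutant and 8.74 ± 2.93 in the triple mutant (SD, n = 5 each). Its departure was -1.68 ± 0.37 (SE) with a limma adjusted p of 0.140, and without the 5 libraries that stood apart it was -1.74 with an adjusted p of 0.00972. The purple acid phosphatase PAP3 averaged 16.1 ± 4.46, 1.97 ± 1.16, 12.2 ± 2.80 and 5.58 ± 1.25 in the same order, with a departure of 1.59 ± 0.37 (SE, limma adjusted p = 0.204). AT1G66100, a thionin and thus a small antimicrobial peptide, averaged 260 ± 132, 24.1 ± 16.6, 322 ± 74.0 and 101 ± 53.9, with a departure of 1.73 ± 0.61 (SE, limma adjusted p = 0.506). The serine carboxypeptidase-like SCPL11 changed by -2.75 without and -1.83 with the NRP mutations, a departure of 0.92 ± 0.29 (SE) close in size to the median. The smallest departures were those of AT4G36105 (0.14 ± 0.24, SE) and AT4G19430 (0.28 ± 0.48, SE), which changed by -3.05 without and -2.76 with the NRP mutations.

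**Figure D3:**
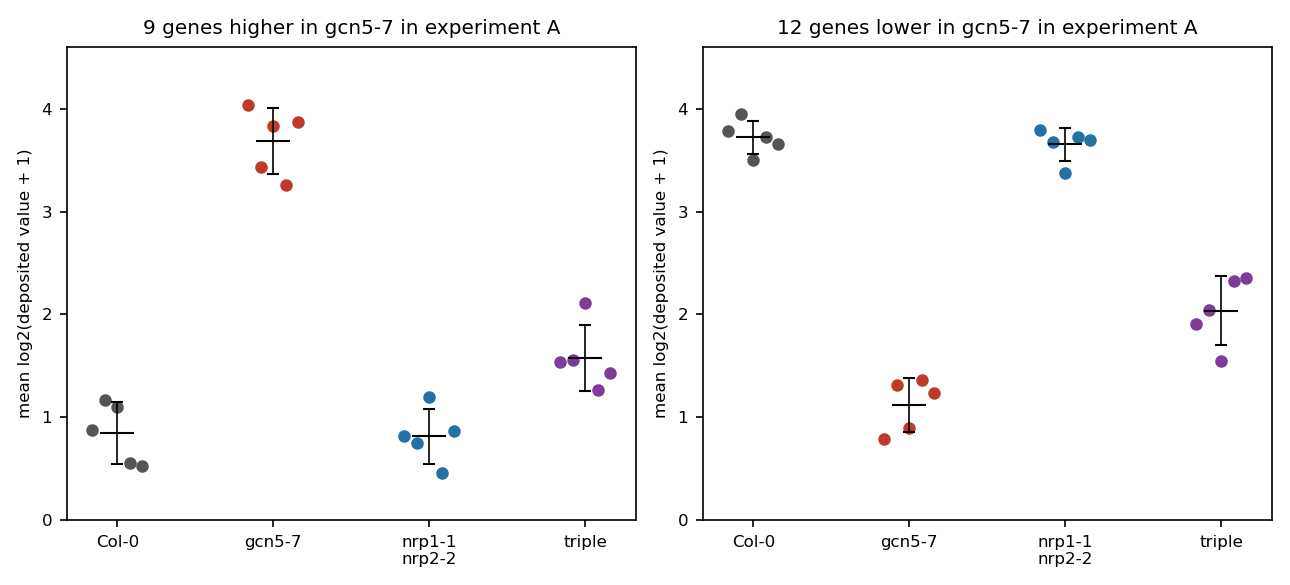
Mean log2(deposited value + 1) per library (dots, 5 per genotype, with mean and SD) over the 9 genes that were higher (left) and the 12 that were lower (right) in gcn5-7 in the first experiment. In each panel the triple mutant lies between Col-0 and gcn5-7 with no overlap, and nrp1-1 nrp2-2 overlaps Col-0. The 9 include AT1G64795, AT1G75945 and AT2G11405, which passed the filter through gcn5-7 alone.

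Groups of genes were followed with 40 lists of pathways, complexes and cell type markers, chosen with earlier results of these data known. Of the 708 listed genes tested, limma called 0 in the fit without the replicate block, where 0.041% of all genes were called. An unadjusted p below 0.05 was found for 63 (40 positive and 23 negative), beside 7.21% of all genes. The lists are therefore described by the signs and medians of the departure beside those of all genes, of which 10199 (52.3%) had a departure above 0 and 9308 below, with a median of 0.02.

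The photosynthesis lists had departures above 0. All 34 tested genes of light harvesting and the photosystems, which encode antenna proteins and subunits of both photosystems, had a positive departure, with a median of 0.68 and a range from 0.45 to 1.27. For the gcn5-7 change in Col-0, 29 of the 34 fell (14.7% of all genes fell), with a median of -1.21, and 32 had an unadjusted p below 0.05 (40.4% of all genes in either direction). In the NRP double mutant 0 of 34 were called as lower in limma (0.61% of all genes; 6 at an unadjusted p below 0.05), with a median of -0.54 and all 34 values below 0. For the NRP change the median was 0.21 in Col-0, where limma called 0 of 34 as higher (0.297% of all genes; 0 at an unadjusted p below 0.05, as 5.66% of all genes were in either direction), and 0.88 in gcn5-7, where 2 rose (2.08% of all genes). The antenna gene LHCB4.3 averaged 388 ± 139 in Col-0, 108 ± 34.5 in gcn5-7, 441 ± 182 in the NRP double mutant and 230 ± 38.5 in the triple mutant (SD, n = 5 each). Its departure of 0.99 ± 0.41 (SE) had a limma adjusted p of 0.606. The list median was 0.31 in replicates 3 to 5 alone, 1.14 in replicates 1 and 2 alone, 0.27 after quantile normalization and 0.54 without the 5 libraries that stood apart.

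All 18 genes of the Calvin cycle, which fixes carbon dioxide, likewise had departures above 0 with a median of 0.65, and 15 of them fell in gcn5-7 against Col-0 (14.7% of all genes fell). Between the triple mutant and nrp1-1 nrp2-2 limma called 0 as lower (0.61% of all genes), and 2 had an unadjusted p below 0.05. SBPASE, an enzyme that regenerates the carbon dioxide acceptor, averaged 1145 ± 87.8, 617 ± 179, 1019 ± 253 and 932 ± 83.6 in Col-0, gcn5-7, nrp1-1 nrp2-2 and the triple mutant. Of the 19 genes of chlorophyll synthesis, all had departures above 0, with a median of 0.65. CRD1, which forms the fifth ring of chlorophyll, averaged 2128 ± 369, 1062 ± 266, 1969 ± 213 and 1790 ± 413 in the same order. Its departure of 0.87 ± 0.30 (SE) had a limma adjusted p of 0.494. The medians of the Calvin cycle and chlorophyll lists were 0.34 and 0.25 in replicates 3 to 5 alone, and 0.55 and 0.47 without the 5 libraries that stood apart. Without replicate 2 of the triple mutant the chlorophyll median was 0.42. The share of values from chloroplast-encoded genes averaged 0.292% ± 0.239 in Col-0 and 0.121% ± 0.0160 in gcn5-7. It averaged 0.224% ± 0.186 in the NRP double mutant and 0.266% ± 0.174 in the triple mutant (SD, n = 5 each). Its departure of 1.24 ± 0.78 (SE) was within 2 SE of 0. The Col-0 mean rests on replicates 1 and 2, which stood apart (0.669% and 0.386%, against 0.0998%, 0.173% and 0.132% in replicates 3 to 5). Replicate 1 of nrp1-1 nrp2-2 (0.55%) and replicate 2 of the triple mutant (0.552%), which also stood apart, were the highest of their genotypes.

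Salicylic acid defence had departures below 0 in all 26 tested genes, with a median of -1.06. This pathway acts against biotrophic pathogens and includes the regulators SARD1 and NPR1 and the secreted PR proteins. In gcn5-7 against Col-0, 16 of the 26 rose (11.6% of all genes rose) with a median of 1.81. In the triple mutant against nrp1-1 nrp2-2, limma called 0 of 26 as higher (0.103% of all genes; 0 at an unadjusted p below 0.05) and the median was 0.74. The NRP change had a median of 0.09 in Col-0 and of -0.89 in gcn5-7, and limma called 0 of 26 as lower in either (0.0923% and 1.14% of all genes; 0 and 7 at an unadjusted p below 0.05). SARD1, a transcriptional activator of salicylic acid synthesis, averaged 8.99 ± 3.45 in Col-0, 47.8 ± 25.5 in gcn5-7, 14.5 ± 12.2 in the NRP double mutant and 28.3 ± 26.1 in the triple mutant (SD, n = 5 each). Its departure of -1.28 ± 0.69 (SE) had a limma adjusted p of 0.747. No member reached an unadjusted p below 0.05 in this fit, and libraries of a genotype differed widely. With replicate number as a block PR2 was called, with a negative departure.

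Averaged per library, the salicylic acid defence list stood at 3.0, 2.92, 4.32, 2.40 and 3.06 in Col-0 and at 6.21, 4.29, 5.18, 4.37 and 5.35 in gcn5-7. It stood at 3.24, 2.66, 5.21, 2.61 and 2.54 in nrp1-1 nrp2-2 and at 3.96, 2.93, 6.07, 3.46 and 3.51 in the triple mutant. Without the 5 libraries that stood apart the median departure was -1.01 with all 26 below 0. It was -0.70 with 25 of 26 below 0 without replicate 3 of nrp1-1 nrp2-2, and -1.60 with all 26 below 0 without replicate 3 of the triple mutant. Replicate 3 was the highest in each genotype but gcn5-7, and with it the triple mutant overlapped gcn5-7. The other 4 triple-mutant libraries lay below all gcn5-7 libraries. The camalexin list, on the synthesis of the indole phytoalexin, had a median departure of -0.82 over 8 genes, 6 of them below 0, and of -0.48 without replicate 3 of nrp1-1 nrp2-2.

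Heat shock genes had a median departure of -0.79, with 14 of 15 below 0. Their median gcn5-7 change was 1.04 in Col-0 and 0.25 in nrp1-1 nrp2-2. BIP3, a chaperone of the endoplasmic reticulum, averaged 0.585 ± 0.920, 8.21 ± 4.85, 1.41 ± 2.47 and 3.72 ± 6.88 in Col-0, gcn5-7, nrp1-1 nrp2-2 and the triple mutant, with a departure of -1.99 ± 0.89 (SE, limma adjusted p = 0.659). In replicates 3 to 5 alone 11 of the 15 were below 0, with a median of -0.47, and without the 5 libraries that stood apart 12 of 15, with a median of -0.69. DNA damage genes had 13 of 16 departures below 0 and a median of -0.54, which was -0.30 once the trend with exon length was removed. RAD54, which acts in repair by recombination, averaged 0.617 ± 0.288, 2.49 ± 0.366, 0.667 ± 0.426 and 1.08 ± 0.408 in the same order, with a departure of -0.79 ± 0.28 (SE, limma adjusted p = 0.498).

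**Figure D4:**
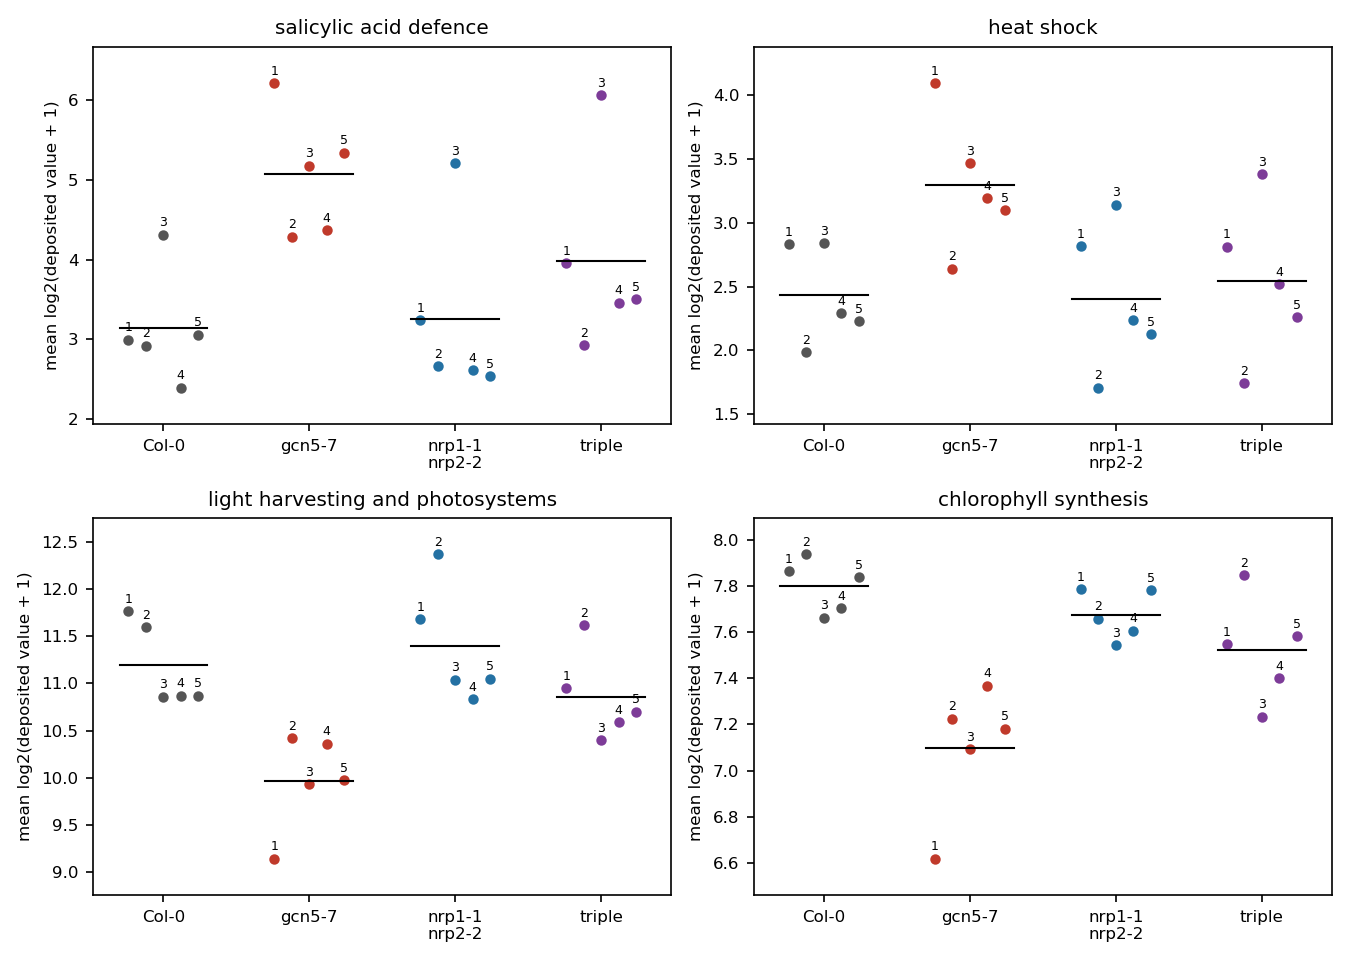
Mean log2(deposited value + 1) per library for 4 gene lists, with replicate numbers beside the dots and the genotype mean as a line. In salicylic acid defence and heat shock the triple-mutant mean lies below the gcn5-7 mean, in light harvesting and chlorophyll synthesis it lies above it, and the ranges of gcn5-7 and the triple mutant overlap in each panel.

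Lists tied to the mutated genes themselves had smaller departures. Histone acetylation had a median of -0.14 over 18 genes, histone deacetylation -0.18 over 14, histone chaperones -0.18 over 13, and H2A.Z with the SWR1 and INO80 remodellers -0.11 over 17. Over the 20 fits without 1 library these medians ran from -0.23 to -0.04, from -0.19 to -0.10, from -0.26 to -0.07 and from -0.24 to -0.04. Polycomb and trithorax genes, which keep genes silent or active, had a median of -0.35 over 13 genes, and of -0.14 once the trend with exon length was removed (-0.54 to -0.11 without 1 library). Core histones had 17 of 20 departures above 0 and a median of 0.32, which was 0.20 without replicate 2 of the triple mutant. The linker histone H1.2, a member of that list, averaged 202 ± 26.7, 112 ± 17.0, 202 ± 22.6 and 169 ± 14.9 in Col-0, gcn5-7, nrp1-1 nrp2-2 and the triple mutant, with a departure of 0.60 ± 0.21 (SE, limma adjusted p = 0.504).

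Mitochondrial import and chaperone genes were a group in which the NRP change was the larger one. Their median NRP change was 0.55 in Col-0 and 0.27 in gcn5-7, with 3 of 24 genes risen in each (0.297% and 2.08% of all genes rose). The departure was below 0 in 22 of 24, with a median of -0.26. That median was -0.16 and -0.17 without replicates 3 and 5 of Col-0, and -0.17, -0.12 and -0.42 without replicates 1, 2 and 3 of nrp1-1 nrp2-2, with 17 to 22 of 24 below 0. The prohibitin PHB1, a scaffold protein of the inner mitochondrial membrane, averaged 12.3 ± 2.11, 22.9 ± 3.89, 32.5 ± 4.04 and 40.3 ± 5.58 in Col-0, gcn5-7, nrp1-1 nrp2-2 and the triple mutant. It rose by 1.34 in Col-0 and by 0.80 in gcn5-7 (limma adjusted p = 0.000151 and 0.0109), and its departure of -0.54 ± 0.22 (SE) had an adjusted p of 0.615. The carrier DIC2, which exchanges dicarboxylates across that membrane, averaged 7.52 ± 3.33, 15.2 ± 2.96, 30.1 ± 11.5 and 23.7 ± 8.71 in the same order, with a departure of -1.37 ± 0.44 (SE, limma adjusted p = 0.486). Values from mitochondria-encoded genes made up 0.0458% ± 0.0148 of the total in Col-0, 0.0398% ± 0.0128 in gcn5-7, 0.0108% ± 0.00847 in the NRP double mutant and 0.0169% ± 0.0102 in the triple mutant (SD, n = 5 each). The summed share thus fell by 2.3 on the log2 scale in Col-0 and by 1.4 in gcn5-7, and the departure of 0.90 ± 0.64 (SE) was not distinguishable from 0 at this spread.

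Some listed genes averaged higher in nrp1-1 nrp2-2 than in the other genotypes, and the departure did not pass the test for those named here. SAG29, a sugar transporter of senescing leaves, stood at 2.40, 1.67, 1.97, 4.99 and 1.96 in Col-0 and at 17.1, 10.8, 4.51, 10.3 and 8.40 in nrp1-1 nrp2-2. It stood at 2.33, 1.33, 1.595, 0.448 and 0.061 in gcn5-7 and at 0.918, 0, 2.59, 1.18 and 1.42 in the triple mutant. Replicates of nrp1-1 nrp2-2 overlapped Col-0 in 1 library. Its NRP change in Col-0 of 1.61 ± 0.37 (SE) did not pass (limma adjusted p = 0.0653), and its departure was -1.56 ± 0.52 (SE, limma adjusted p = 0.486). The floral regulator SEP3 averaged 0.558 ± 0.426, 0.141 ± 0.126, 2.94 ± 1.00 and 0.499 ± 0.469 in Col-0, gcn5-7, nrp1-1 nrp2-2 and the triple mutant. It rose by 1.33 ± 0.24 (SE, limma adjusted p = 0.0126) with the NRP mutations in Col-0, and its departure was -0.99 ± 0.34 (SE, limma adjusted p = 0.492).

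Other lists held departures of both signs. Glucosinolate genes had 18 of 23 departures above 0 with a median of 0.45. The largest was that of MYB29, a regulator of aliphatic glucosinolate synthesis (1.53 ± 0.49, SE, limma adjusted p = 0.482), while the myrosinases TGG2 and TGG1 (1.45 and 1.21) had the smallest unadjusted p-values. The median was 0.07 in replicates 3 to 5 alone, 0.12 without the 5 libraries that stood apart and 0.29 without replicate 2 of the triple mutant. Cell wall loosening genes had a median of 0.45, with 20 of 26 above 0, phosphate starvation genes 0.43 with 12 of 16, and flavonoid and anthocyanin genes 0.30 with 18 of 21. Leaving out 1 library moved the cell wall median to 0.70, 0.29 and 0.27 (replicates 2, 3 and 4 of nrp1-1 nrp2-2) and to 0.27 (replicate 2 of the triple mutant). It moved the phosphate median to between 0.23 and 0.65, with 7 of the 20 libraries moving it by over 1.5 times, and the flavonoid median to 0.48 (replicate 5 of Col-0). Markers of guard cells, trichomes and vascular tissue had 20 of 21 departures above 0 and a median of 0.45 (0.28 without replicate 3 of nrp1-1 nrp2-2, 0.29 without replicate 2 of the triple mutant), with median gcn5-7 changes of -0.47 in Col-0 and -0.09 in nrp1-1 nrp2-2; how far the cell types of the seedlings differed was not tested. Root markers had 4 of 20 listed genes above the level needed for testing and seed and embryo markers 1 of 18. Genes of the cell cycle (median 0.06 over 32), the circadian clock (0.01 over 16), nitrate and sugar responses (-0.04 over 25) and flowering time (0.09 over 18) had medians close to that of all genes, and each of these 4 medians changed sign in at least 1 of the fits without 1 library.

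**Figure D5:**
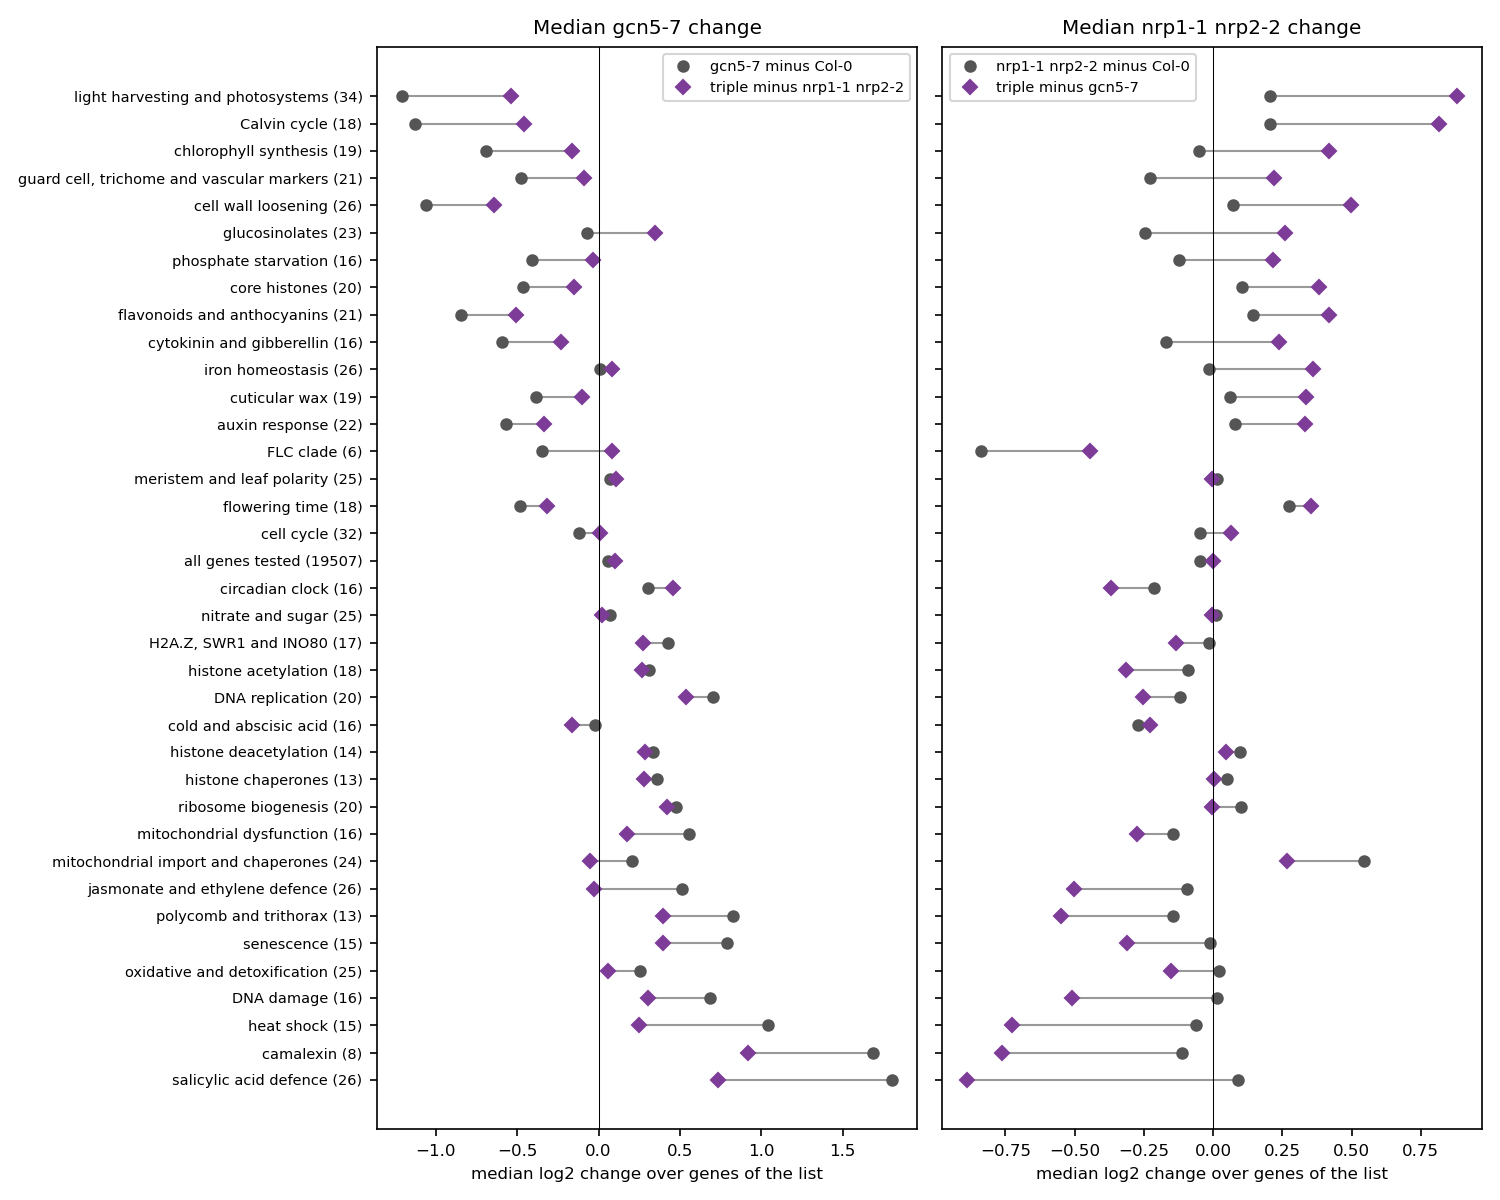
Median log2 change over the tested genes of each list (number in brackets), for gcn5-7 (left) and nrp1-1 nrp2-2 (right), with the other mutation absent (circles) and present (diamonds); lists are ordered by their median departure. In the left panel the diamonds lie nearer to 0 than the circles for the 8 lists at each end of the order, except for glucosinolates.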

How the data were processed

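Per the names the authors gave their deposited tables, the values are a signal, TPM adjusted by TMM factors. Per the submitters' processing notes, fastp 0.23.4, HISAT2 2.2.1 and TAIR10 were used. The read counter, strand handling and annotation were not given in the sources used here. Whole reads were recovered from value times exon length, with 99.5 to 99.7% of values within 0.1 of a whole number; intervals cover the spread between libraries. Replicates differed by more than sampling noise (chi-square per degree of freedom 17.3 to 236 over 40 pairs). Values were analysed as log2(value + 1) with limma 3.58.1 in R 4.3.3, with all 4 genotypes in one fit with the trend and robust options of its empirical Bayes step. Tested genes averaged at least 1 across the 20 libraries, and fold changes of low genes are understated by the pseudocount. The script was tested on simulated data. The first experiment of the series, in a separate table, served only to choose genes. Members, lists and alternatives were chosen with earlier results of these data known.

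Genes named are GCN5, NRP1 and NRP2, called genes with a symbol and a mean of at least 5 in the highest genotype, and, with under 10 called, the 10 smallest p-values. Called genes without a symbol, list examples (from the 2 smallest unadjusted p per list), genes changed in both backgrounds and members of the set from the first experiment were named after their values were seen. Of 32833 genes, 32536 matched the RefSeq annotation (TAIR10.1), from which sequences and coordinates were read.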

Additional observations from a re-analysis of the deposited data

Results flagged for a closer look

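In 5-library groups of the targeted genes and the 10 genes with the smallest p-values, 6 of 44 held 1 library far from the rest. Chance gives about 1 in 20 for normally distributed values. That rate does not hold for groups at the floor, such as AT1G64795 in nrp1-1 nrp2-2. GCN5 stood at 6.78 in gcn5-7 replicate 2, against 3.55 to 4.303 in the others. NRP1 stood at 19.8 in Col-0 replicate 1, against 27.8 to 31.3. AT1G75945 stood at 7.45 in triple-mutant replicate 5, against 0 to 0.769, and AT1G64795 at 1.54 in nrp1-1 nrp2-2 replicate 5, against 0 in the others. AT2G40960 stood at 3.91 in Col-0 replicate 1, against 6.28 to 7.41, and TGG2 at 266.5 in gcn5-7 replicate 2, against 170.0 to 179. The gcn5-7 change differed between Col-0 and the NRP double mutant, by limma's test of the departure, for AT1G64795 (-6.95), AT1G75945 (-4.08), AT2G11405 (-2.54), AT2G41780 (-1.79), AT2G40960 (2.25), PGL34 (1.98), FUC1 (1.70) and AT1G68260 (1.48).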

How the results depend on the processing

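In the 35 alternatives other than the linear scale (34 where a gene was not tested under a stricter filter) all 8 called departures kept their sign, and AT1G64795 kept its call in all 35. On the linear scale all 8 kept their sign and 1 of them, AT2G41780, kept its call, while AT1G64795 had a limma adjusted p of 0.185. The number of called genes (8, with 4 positive and 4 negative) was 25 (10 and 15) with no filter on low values, 5 (3 and 2) with a mean of at least 5, 7 (6 and 1) with a pseudocount of 0.1, and 9 (3 and 6) with a pseudocount of 5. It was 14 (8 and 6) after quantile normalization, 6 (1 and 5) with equal sums, 20 (12 and 8) with the exon length trend removed, 152 (119 and 33) with library weights, and 5 (0 and 5) on the linear scale. Replicates 1 and 2 alone gave 2 (0 and 2), as did replicates 3 to 5 alone. Leaving out 1 library gave 6 to 18 (3 to 12 positive, 3 to 6 negative). Chosen after seeing the data, the fit without the 5 libraries that stood apart gave 3 (1 and 2) and limma-voom on recovered reads 7 (6 and 1). The causes were not tested.

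The calls for the NRP change (76 in Col-0 and 627 in gcn5-7) and for the gcn5-7 change (5118 in Col-0 and 139 in the NRP double mutant) moved as well. In that order they were 439, 5788, 8665 and 402 with library weights, 82, 1246, 6063 and 182 after quantile normalization, and 161, 968, 5473 and 193 with the exon length trend removed. They were 40, 481, 6115 and 99 with equal sums, 47, 378, 3832 and 46 with a mean of at least 5, and 48, 575, 5121 and 112 with limma-voom on recovered reads. On the linear scale they were 15, 392, 4148 and 61. Replicates 1 and 2 alone gave 7, 215, 4217 and 27, and replicates 3 to 5 alone 86, 139, 2347 and 24.

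Of 30 same-number pairs of libraries, 29 correlated above 0.1 after group means were removed (0.0185 to 0.798), and 17 of 20 libraries correlated best with one of their own number, a hint from the data, not the design. With a replicate block 217 genes were called (165 positive and 52 negative), and with the block and the exon length trend removed 449 (301 and 148), each including all 8. The block also gave 334 and 4953 calls for the NRP change and 9714 and 1237 for the gcn5-7 change in the same order, while the counts of called list members given above come from the fit without it. The lists then held calls for NRP2, PR2 and HSP101 with negative departures and for SEP4, TGG2, FRO2 and PHO1 with positive ones. GSTF2, CAT3 and GSTU7 were also called, 1 positive and 2 negative. The NRP2 level was at or near 0 where nrp2-2 is present, so its call is no measure of additivity.

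The spread between libraries, more than depth, limits these values, with a median SE of 0.38 for the departure in the fit without the block. Replicates that are not stated to be separate cultures, whole seedlings and 1 line per genotype limit what they stand for.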
